A study of Homo sapiens with 6 samples.

Results

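The aldehyde dehydrogenases described here are 10 genes chosen by symbol from the 27788 genes of the deposited expression table: ALDH3A1, ALDH3A2, ALDH3B1, ALDH1A1, ALDH1B1, ALDH1L2, ALDH2, ALDH7A1, ALDH9A1 and ALDH18A1. The set was drawn around ALDH3A1 because that gene was among the largest falls in double-negative against double-positive cells, so that difference is given below as a description, with no test for any member. All 10 genes averaged 1 FPKM or more across the libraries, the minimum for testing, and ALDH1L2 reached it only through its double-positive libraries. FPKM is the number of fragments scaled by transcript length and by library size, so levels of different genes are compared per length.

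RNA with poly-A tails was measured in BJ cells, an established human line of foreskin fibroblasts, 8 days into reprogramming towards pluripotency. Every group carried the same O2S and K2M lentiviral constructs, which together deliver OCT4, SOX2, KLF4 and MYC, and was grown first in serum and from D6 in hESC medium. Antibodies to CD13 and CD201, the only sort the labels describe, gave 3 groups of 2 libraries: double-negative cells (CD13-, CD201-), CD201-only cells (CD13-, CD201+) and double-positive cells (CD13+, CD201+). The line stands for 1 fibroblast source, and uninfected fibroblasts are not analysed here. The labels do not say whether replicates came from separate cultures, so p-values measure only the spread between these libraries, which may be technical.

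Aldehyde dehydrogenases oxidize reactive aldehydes to carboxylic acids with NAD or NADP as the acceptor. Some clear aldehydes made by lipid peroxidation or by alcohol metabolism, others make signalling molecules such as retinoic acid, and others carry steps of amino acid, folate or carnitine metabolism. ALDH3A1 is best known as an abundant protein of the corneal epithelium, where it limits damage by light and by lipid aldehydes. ALDH1A1 turns retinal into retinoic acid, and its enzyme activity is widely used to stain stem and progenitor cells.

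Promoter sequences were matched by symbol in RefSeq's table for GRCh38.p14, a build other than that of the expression values, and 7 of the 10 members were found. They are shown from 250 bases before to 50 bases after the annotated start, 5′ to 3′ on the gene's strand, with searched motifs in capitals. ALDH1A1 and ALDH1B1 are shown because double-negative cells lay above CD201-only cells for the first gene and below them for the other, and ALDH3A2 because it is a close relative of ALDH3A1 whose level varied least among the members.
ALDH1A1, chr9:72953004-72953303, minus strand: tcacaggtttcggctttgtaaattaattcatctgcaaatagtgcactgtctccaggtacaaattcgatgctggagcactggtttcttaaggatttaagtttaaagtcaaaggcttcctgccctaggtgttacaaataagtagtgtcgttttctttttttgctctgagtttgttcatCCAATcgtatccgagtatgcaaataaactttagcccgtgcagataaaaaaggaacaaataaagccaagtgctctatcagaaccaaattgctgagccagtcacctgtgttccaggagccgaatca
ALDH1B1, chr9:38392452-38392751, plus strand: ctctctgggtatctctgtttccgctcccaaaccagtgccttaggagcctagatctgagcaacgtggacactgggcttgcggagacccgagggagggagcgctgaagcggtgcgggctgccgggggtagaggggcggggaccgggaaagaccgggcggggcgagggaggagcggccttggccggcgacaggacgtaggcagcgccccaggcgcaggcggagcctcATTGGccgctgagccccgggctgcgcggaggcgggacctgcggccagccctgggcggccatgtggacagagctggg
ALDH3A2, chr17:19648501-19648800, plus strand: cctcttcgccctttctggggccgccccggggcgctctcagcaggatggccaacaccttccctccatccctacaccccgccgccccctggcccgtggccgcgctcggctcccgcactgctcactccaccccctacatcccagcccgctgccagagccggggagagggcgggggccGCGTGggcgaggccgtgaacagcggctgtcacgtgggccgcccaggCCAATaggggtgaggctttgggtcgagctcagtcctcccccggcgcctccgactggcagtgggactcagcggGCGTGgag
Both strands of each window were searched for GCGTG, the core bound by the aryl hydrocarbon receptor, TGACNNNGC, the core of antioxidant response elements, TGANTCA, the AP-1 site, and CCAAT. ALDH1A1 held CCAAT at -74 from the start, ALDH7A1 held it at -63, and ALDH1B1 held it on the other strand at -26, where it reads ATTGG. ALDH3A2 held GCGTG at -76 and at 42, and CCAAT at -30. The other windows held none of these letters, and no member's window held TGACNNNGC or TGANTCA. Of 35116 promoters in the table, 36.5% held GCGTG, 34.6% CCAAT, 13.3% TGACNNNGC and 7.71% TGANTCA. The ALDH1A1 window was 40.3% G and C, against 71.3% for ALDH1B1 and 73.3% for the ALDH3A2 window shown. The remaining windows held between 55% and 67% G and C.

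The sort and the libraries set the background for every gene. FPKM summed to between 489152 and 521352 per library, 11983 to 12168 genes reached 1 FPKM, and approximate depth was 11.3 to 15.5 M fragments (M stands for mega). ANPEP, the gene of CD13, averaged 36.0 FPKM in double-negative, 28.9 FPKM in CD201-only and 155.3 FPKM in double-positive cells, and PROCR, the gene of CD201, averaged 17.3, 47.5 and 51.9 FPKM in the same groups. All 8 fibroblast markers reached 1 FPKM in at least 1 group. Their summed level was 2778 to 2790 FPKM in double-negative, 2168 to 2204 FPKM in CD201-only and 5840 to 5979 FPKM in double-positive libraries. THY1, the largest part of that sum in double-negative cells, averaged 1642, 1175 and 1370 FPKM in those groups. It was thus higher in double-negative than in double-positive cells, whereas every other fibroblast marker was lower. The summed level of 6 markers of pluripotent cells was 93.4 to 98.2, 59.6 to 60.2 and 27.9 to 28.2 FPKM in those groups.

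ALDH3A1 was the most variable member. It stood at 12.9 and 12.1 FPKM in the double-negative libraries, 28.6 and 26.8 FPKM in the CD201-only libraries, and 131.1 and 129.9 FPKM in the double-positive libraries. The groups did not overlap, and double-negative cells were lowest. Group means were 12.5 ± 0.583, 27.7 ± 1.24 and 130.5 ± 0.85 FPKM (SD, n = 2 each), so the mean of double-positive cells was 10.5 times that of double-negative cells and 4.72 times that of CD201-only cells. In bulk libraries, fewer cells expressing a gene and less RNA per cell cannot be told apart.

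On the scale of log2(FPKM + 1), used for every log2 change here, ALDH3A1 differed by -3.29 (SE 0.045) between double-negative and double-positive cells. This was the fifth largest fall of 12210 genes, between MAL (-3.36) and PRELP (-3.25). It differed by -2.20 between CD201-only and double-positive cells, and by -1.09 between double-negative and CD201-only cells. A further comparison sets CD201-only cells against the mean of the double-negative and double-positive groups, and there the difference for ALDH3A1 was -0.56 (SE 0.039). All 4 values are descriptions with no test, because the gene was picked for the first of them and the others share its libraries.

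**Figure D1:**
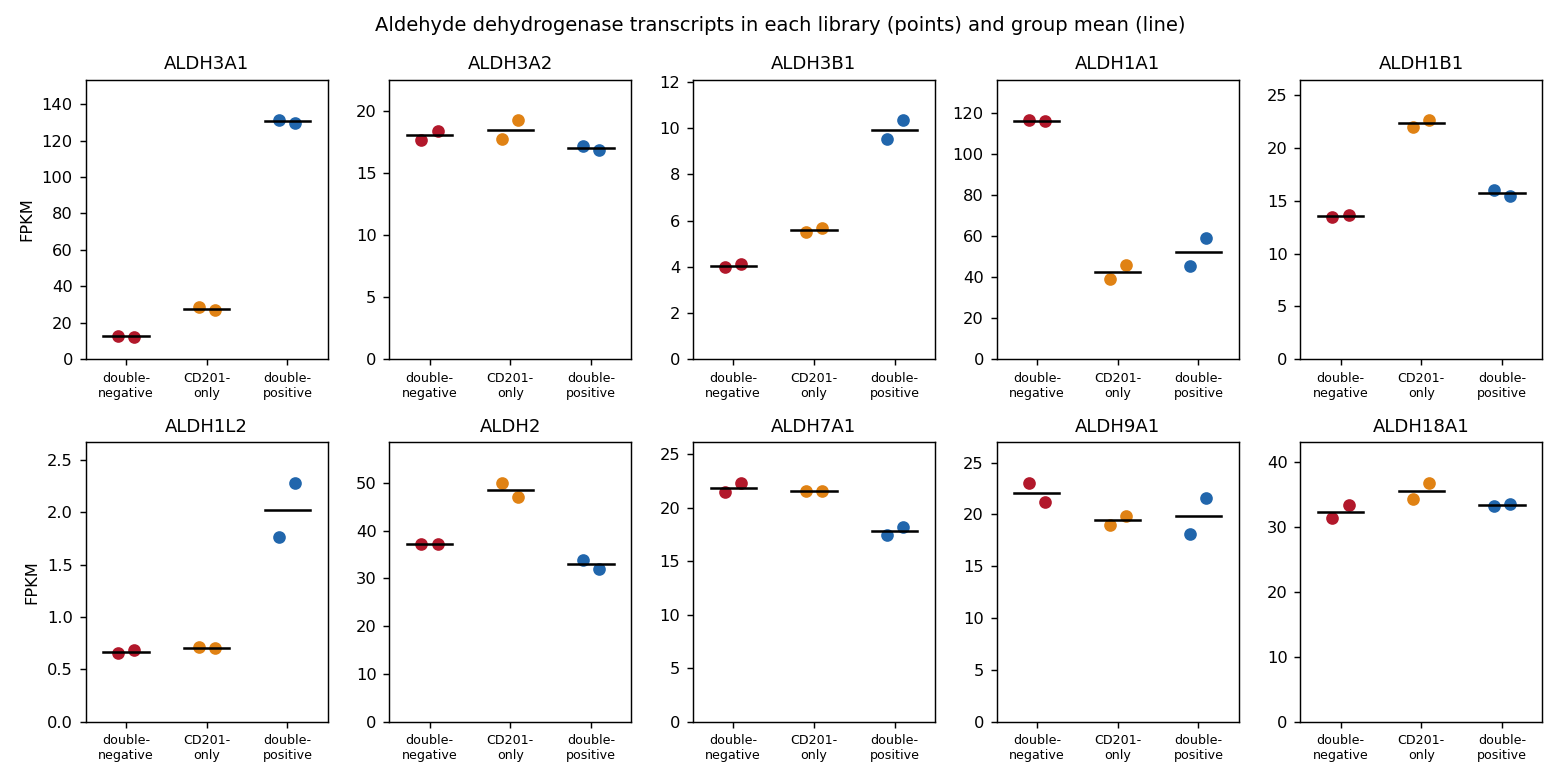
FPKM of the 10 aldehyde dehydrogenase genes, with the 3 sorted groups on the horizontal axis, 1 point per library and a line at the group mean; each vertical axis starts at 0 and has its own scale. ALDH3A1 sits near 130 FPKM in double-positive cells only, ALDH1A1 near 116 FPKM in double-negative cells only, and ALDH1B1 and ALDH2 are highest in CD201-only cells.

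The remaining members of the ALDH3 class did not share one pattern. ALDH3B1, a membrane-associated enzyme for lipid aldehydes, had 3.97 and 4.11 FPKM in double-negative, 5.52 and 5.69 FPKM in CD201-only, and 9.54 and 10.3 FPKM in double-positive libraries. It kept the order of ALDH3A1 over a smaller range, with 3 groups that did not overlap. Against double-positive cells it fell in CD201-only cells (log2 change -0.73, SE 0.0631, adjusted p = 6.81e-05, limma), and it was lower in double-negative than in CD201-only cells (-0.39, adjusted p = 0.00298). Its change between double-negative and double-positive cells was -1.12, and its difference from the mean of the other groups in CD201-only cells was -0.17 (adjusted p = 0.0413). That last call was lost in 9 of 15 alternatives, with adjusted p from 0.0249 to 0.19.

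ALDH3A2, the microsomal fatty aldehyde dehydrogenase that is deficient in Sjögren-Larsson syndrome, had 17.7 and 18.4 FPKM in double-negative, 17.8 and 19.3 FPKM in CD201-only, and 17.2 and 16.9 FPKM in double-positive libraries. Its 6 libraries thus spanned 16.9 to 19.3 FPKM, and it passed no test. Its change in CD201-only against double-positive cells was 0.11 (adjusted p = 0.098), called only without CD201-only replicate 1 (adjusted p = 0.0475, range over alternatives to 0.633). RefSeq's annotation places ALDH3A2 and ALDH3A1 on chromosome 17 with SLC47A2 between them, and ALDH3B1 on chromosome 11. Of this pair on chromosome 17, ALDH3A2 had a ratio of 1.09 between its highest and lowest group means, and ALDH3A1 one of 10.5.

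ALDH1A1 was highest where ALDH3A1 was lowest. The double-negative libraries had 116.2 and 115.9 FPKM, the CD201-only libraries 38.9 and 45.8 FPKM, and the double-positive libraries 45.4 and 58.9 FPKM. Double-negative cells were highest, and the CD201-only and double-positive libraries overlapped. Means were 116.1 ± 0.223, 42.3 ± 4.86 and 52.2 ± 9.55 FPKM (SD, n = 2 each), so the double-negative mean was 2.74 times that of CD201-only cells and 2.23 times that of double-positive cells. ALDH1A1 was higher in double-negative than in CD201-only cells (log2 change 1.44, SE 0.119, adjusted p = 1.27e-04, limma), and ranked 31 among the rises of 12210 genes. Its difference between double-negative and double-positive cells was 1.15.

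Between CD201-only and double-positive cells ALDH1A1 changed by -0.29 (adjusted p = 0.0746), which missed the threshold. The 16 alternatives gave adjusted p from 0.00585 to 0.355. Of these, 3 called it: median-ratio rescaling (-0.37, adjusted p = 0.0288), the replicate block (adjusted p = 0.0245) and the fit without double-positive replicate 1 (-0.47, adjusted p = 0.00585). Against the mean of the double-negative and double-positive groups it was lower in CD201-only cells (-0.86, SE 0.103, adjusted p = 5.58e-04).

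ALDH2 and ALDH1B1, both mitochondrial enzymes that oxidize acetaldehyde, peaked together in CD201-only cells. ALDH2 had 37.1 and 37.3 FPKM in double-negative, 49.97 and 46.97 FPKM in CD201-only, and 33.9 and 32.1 FPKM in double-positive libraries. ALDH1B1 had 13.5 and 13.7 FPKM in double-negative, 22.0 and 22.6 FPKM in CD201-only, and 15.99 and 15.44 FPKM in double-positive libraries. For both genes the CD201-only libraries lay above the other 4, without overlap between any groups.

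The tests called both genes in each comparison made. Against double-positive cells, ALDH2 rose in CD201-only cells by 0.54 (SE 0.0428, adjusted p = 4.22e-05, limma) and ALDH1B1 by 0.48 (SE 0.0416, adjusted p = 6.66e-05). The changes of double-negative against CD201-only cells were -0.37 for ALDH2 (adjusted p = 6.21e-04) and -0.68 for ALDH1B1 (adjusted p = 3.23e-05). Against the mean of the other groups, CD201-only cells were higher by 0.46 for ALDH2 (adjusted p = 8.94e-05) and by 0.58 for ALDH1B1 (adjusted p = 2.61e-05). Between double-negative and double-positive cells the values parted: the difference was 0.17 for ALDH2 and -0.20 for ALDH1B1.

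ALDH7A1, the dehydrogenase of aminoadipic semialdehyde in lysine breakdown, had its lowest level in double-positive cells. It had 21.5 and 22.3 FPKM in double-negative, 21.6 and 21.6 FPKM in CD201-only, and 17.5 and 18.2 FPKM in double-positive libraries. The double-negative and CD201-only libraries overlapped, and both groups lay above the double-positive one. The rise in CD201-only against double-positive cells was 0.26 (adjusted p = 0.00131), the difference between double-negative and double-positive cells was 0.28, and that between double-negative and CD201-only cells was 0.02 (adjusted p = 0.747). A call against the mean of the other groups (0.12, adjusted p = 0.0283) was lost in 6 of 15 alternatives, with adjusted p up to 0.123.

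ALDH1L2, the mitochondrial formyltetrahydrofolate dehydrogenase, was the least abundant member. It had 0.652 and 0.682 FPKM in double-negative, 0.709 and 0.707 FPKM in CD201-only, and 1.77 and 2.28 FPKM in double-positive libraries. Both double-positive libraries stood above the other 4, by a ratio of means of 3.03 over double-negative and 2.86 over CD201-only cells. The log2 scale shrinks such low values: the change in CD201-only against double-positive cells was -0.82 (SE 0.108, adjusted p = 5.77e-04), and that between double-negative and double-positive cells was -0.85. Since the gene met the minimum for testing only where it was high, its calls are not taken as support, and the counts and medians of members below are also given without it. Its call against the mean of the other groups (-0.39, adjusted p = 0.0132) was lost without either CD201-only library, with adjusted p from 0.00564 to 0.0662 over the alternatives, and its difference between double-negative and CD201-only cells was -0.04 (adjusted p = 0.822).

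ALDH9A1 and ALDH18A1 passed no test. ALDH9A1, which serves carnitine synthesis, had 23.0 and 21.2 FPKM in double-negative, 18.95 and 19.89 FPKM in CD201-only, and 18.1 and 21.6 FPKM in double-positive libraries. ALDH18A1, which makes pyrroline carboxylate for proline and ornithine, had 31.3 and 33.5 FPKM in double-negative, 34.3 and 36.8 FPKM in CD201-only, and 33.2 and 33.6 FPKM in double-positive libraries. For ALDH9A1 the double-positive libraries overlapped both other groups, and for ALDH18A1 they overlapped the double-negative libraries, with the CD201-only libraries above both.

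The nearest result to the threshold for ALDH18A1 was its difference between double-negative and CD201-only cells (-0.13, adjusted p = 0.0703), which was called after median-ratio rescaling and with the replicate block (adjusted p from 0.031 to 0.325 over the alternatives). For ALDH9A1 that difference was 0.18 (adjusted p = 0.133), called in 3 of 16 alternatives (adjusted p from 0.0416 to 0.458). The annotation overlaps ALDH9A1 with the ribosomal pseudogenes RPS13P1 and RPL21P27, and how their fragments were assigned was not tested.

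Counts of called members are set beside the share of all genes called in the same comparison. Against the mean of the double-negative and double-positive groups, limma called 6 of the 9 members other than ALDH3A1 in CD201-only cells at an adjusted p under 0.05, against 44.8% of all 12210 genes tested, with ALDH1B1, ALDH2 and ALDH7A1 higher and ALDH3B1, ALDH1A1 and ALDH1L2 lower. The count was 3 without CD201-only replicate 1 and 3 without CD201-only replicate 2, and with ALDH1L2 left aside it was 5 of 8. In CD201-only against double-positive cells 5 of the same 9 members were called, against 58.7% of all genes: ALDH1B1, ALDH2 and ALDH7A1 rose, and ALDH3B1 and ALDH1L2 fell, or 4 of 8 with ALDH1L2 left aside. Here the members' share was close to that of all genes. In double-negative against CD201-only cells 4 of 9 were called, against 37.9% of all genes: ALDH1A1 rose, and ALDH3B1, ALDH1B1 and ALDH2 fell, or 4 of 8 with ALDH1L2 left aside.

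The median log2 change of the 10 members was 0.03 in CD201-only against double-positive cells (0.08 over all genes), -0.08 in double-negative against CD201-only cells (0.04), and -0.01 for CD201-only cells against the mean of the others (0.01). With ALDH1L2 left aside these medians were 0.09, -0.13 and 0.07. Between double-negative and double-positive cells, which the choice used, 5 members had values above 0 and 5 below, with a median of 0.02, or 0.08 without ALDH1L2, against 0.11 over all genes. A change of at least 1 in size was seen in 3 members, ALDH1A1 above 0 (2.13% of all genes reached that) and ALDH3A1 and ALDH3B1 below 0 (4.77%), and nothing is read from these counts. In that comparison 66.6% of all genes were called, and libraries of the compared groups did not overlap in 8 of 10 members, against 83.3% of all genes. The same count of 8 of 10 held in CD201-only against double-positive cells (79.3% of all genes) and in double-negative against CD201-only cells (71.9%), and with ALDH1L2 left aside it was 7 of 9 in each of these comparisons. The double-negative and CD201-only comparisons with double-positive cells share the double-positive libraries.

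**Figure D2:**
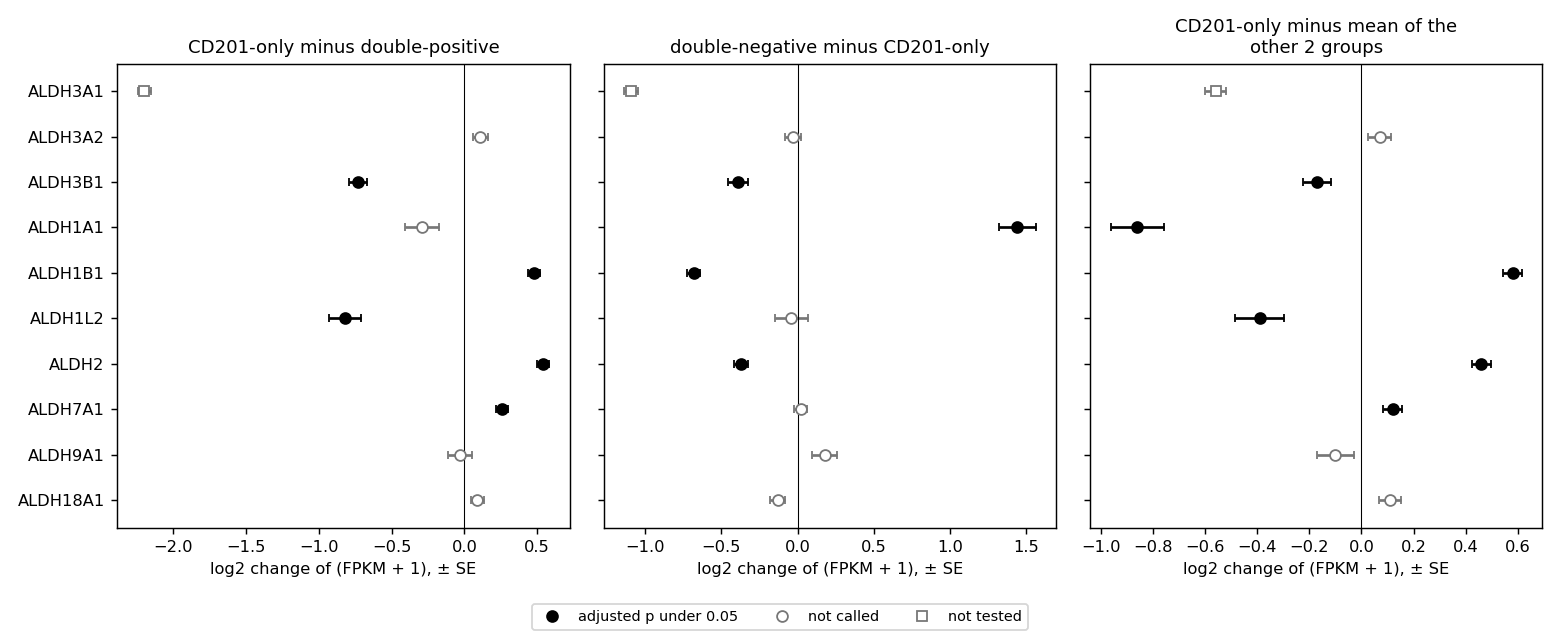
Log2 change of (FPKM + 1) with its SE for each member in 3 comparisons, with filled circles at an adjusted p under 0.05, open circles above it and open squares where no test was made. ALDH1B1 and ALDH2 lie right of 0 in CD201-only cells in the outer panels, and ALDH1A1 stands alone at 1.44 in the middle panel.

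Because FPKM is scaled by length, the members can be set beside each other within a group. In double-negative cells the order of the 10 levels ran from ALDH1A1 (116.1 FPKM) through ALDH2 (37.2) and ALDH18A1 (32.4) to ALDH3B1 (4.04) and ALDH1L2 (0.667), with ALDH3A1 eighth. In CD201-only cells ALDH2 (48.5 FPKM) led ALDH1A1 (42.3), and ALDH3A1 was the fourth. In double-positive cells ALDH3A1 led ALDH1A1 (52.2 FPKM). Neighbours whose libraries overlapped were ALDH9A1 and ALDH7A1 in double-negative cells, ALDH9A1 and ALDH3A2 in CD201-only cells, and ALDH18A1 with ALDH2 and ALDH9A1 with ALDH7A1 in double-positive cells. The remaining neighbours did not overlap.

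The family as a whole has 19 genes in the table, and its summed level varied far less than its make-up. The sum was 374.9 ± 0.893 FPKM in double-negative, 345.1 ± 5.9 FPKM in CD201-only and 396.4 ± 9.75 FPKM in double-positive cells (SD, n = 2 each). ALDH3A1 made up 3.33% ± 0.163 of it in double-negative, 8.02% ± 0.497 of it in CD201-only and 32.9% ± 1.02 of it in double-positive cells. ALDH1A1 made up 31.0% ± 0.133, 12.3% ± 1.2 and 13.1% ± 2.09 in those groups. The most abundant gene of the family was thus a different one in each group: ALDH1A1 in double-negative cells, ALDH1A2 in CD201-only cells with 16.7% ± 0.268, and ALDH3A1 in double-positive cells.

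**Figure D3:**
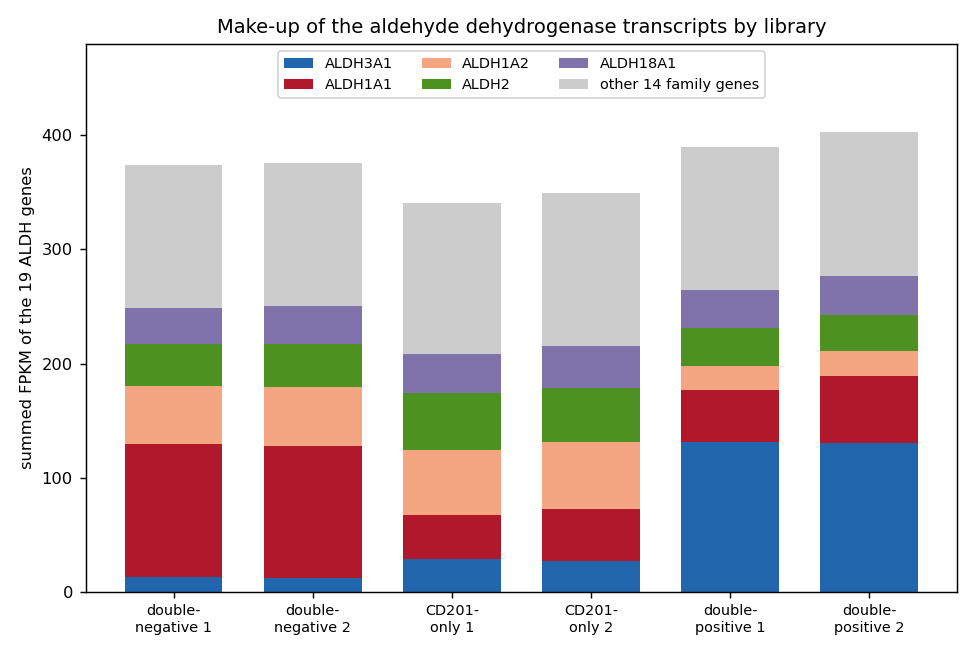
Summed FPKM of the 19 ALDH genes in each library, split into the 5 most abundant genes and the other 14. The bars differ little in height, between 341 and 403.3 FPKM, while the ALDH3A1 segment is widest in double-positive and the ALDH1A1 segment in double-negative libraries.

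The ratio of the highest to the lowest group mean put numbers on this spread. It was 10.5 for ALDH3A1, 3.03 for ALDH1L2, 2.74 for ALDH1A1, 2.46 for ALDH3B1, 1.65 for ALDH1B1 and 1.47 for ALDH2. It was 1.23 for ALDH7A1, 1.14 for ALDH9A1, 1.10 for ALDH18A1 and 1.09 for ALDH3A2, all under the median of 1.33 over 12183 tested genes with no group mean of 0.

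The 9 family genes outside the chosen set are the rest of the family, and 6 of them were tested in every comparison. Like the members, they were set apart with earlier results of these data known. Of the 6, 3 were higher and 3 lower in double-negative against double-positive cells, where 42.1% of all genes were called higher and 24.5% lower. After median-ratio rescaling, which scales each library by the median ratio of its genes, 2 were higher and 3 lower, against 29.9% and 31.9% of all genes. ALDH1A2, the main retinoic acid enzyme of the early embryo, had the largest log2 change of the 6, on a scale that understates low genes, and a ratio of 2.69 between its highest and lowest group means. It had 51.2 and 51.5 FPKM in double-negative, 56.4 and 59.1 FPKM in CD201-only, and 20.9 and 22.0 FPKM in double-positive libraries. Double-negative and CD201-only cells were both well above double-positive cells (1.22, adjusted p = 6.06e-07, and 1.39, adjusted p = 4.79e-07), and double-negative cells were slightly below CD201-only cells (-0.17, adjusted p = 0.0155, lost in 4 of 16 alternatives, to 0.092).

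ALDH1A3, another retinal dehydrogenase, was low throughout and had a larger ratio of its highest to its lowest group mean, 3.61. It had 1.81 and 1.86 FPKM in double-negative, 0.831 and 0.691 FPKM in CD201-only, and 2.73 and 2.76 FPKM in double-positive libraries. CD201-only cells were lowest and no groups overlapped: the change was -0.40 in double-negative (adjusted p = 0.00459) and -1.09 in CD201-only cells (adjusted p = 3.83e-05), each against double-positive cells. It was 0.69 higher in double-negative than in CD201-only cells (adjusted p = 8.39e-04). The 3 retinal dehydrogenases of the ALDH1A class had their highest mean in 3 different groups, ALDH1A1 in double-negative, ALDH1A2 in CD201-only and ALDH1A3 in double-positive cells.

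The other tested family genes changed less. ALDH6A1, the methylmalonate semialdehyde dehydrogenase of valine breakdown, averaged 4.70 FPKM in double-negative, 3.70 FPKM in CD201-only and 3.34 FPKM in double-positive cells (0.39 in double-negative against double-positive cells, adjusted p = 0.00159). ALDH4A1, which oxidizes pyrroline carboxylate in proline breakdown, averaged 12.1, 13.7 and 14.1 FPKM in the same groups (-0.21, adjusted p = 0.00787). ALDH16A1, a member without a catalytic cysteine in mammals, averaged 24.6, 25.4 and 21.1 FPKM (0.22, adjusted p = 0.00681), and its call was lost after median-ratio rescaling (adjusted p = 0.133, the highest over its alternatives).

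ALDH5A1, the succinic semialdehyde dehydrogenase of GABA breakdown, averaged 1.227, 1.199 and 1.607 FPKM, and its call (-0.23, adjusted p = 0.0468) was lost in 10 of 15 alternatives, to 0.132. ALDH1L1, ALDH3B2 and ALDH8A1 did not reach the minimum for testing. ALDH8A1 averaged 0.626 FPKM in double-negative, 0.348 FPKM in CD201-only and 0.432 FPKM in double-positive cells, and ALDH1L1 and ALDH3B2 stayed at or under 0.101 FPKM in every library.

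The 8 tested genes whose profiles over the 6 libraries were closest to ALDH3A1 were PRELP, LY6D, SLURP2, C6orf15, KRT16, MAL, HTRA3 and KLK10. Likeness was the root-mean-square difference of log2(FPKM + 1) after centring each gene on its own mean, and ran from 0.08 for PRELP to 0.27 for KLK10. PRELP, a proteoglycan of the matrix, had 1.80 and 1.66 FPKM in double-negative, 4.14 and 4.28 FPKM in CD201-only, and 24.5 and 25.6 FPKM in double-positive libraries. LY6D, a surface protein of keratinocytes, averaged 2.91, 7.09 and 31.0 FPKM in those groups, and KRT16, a keratin of stressed epidermis, averaged 2.68, 5.49 and 24.5 FPKM. HTRA3, a secreted serine protease, averaged 12.01, 25.73 and 86.25 FPKM, the nearest of the 8 to ALDH3A1 in level. SLURP2, C6orf15, MAL and the protease KLK10 averaged 1.88 to 4.997 FPKM in double-negative, 3.82 to 9.70 FPKM in CD201-only and 28.5 to 53.5 FPKM in double-positive cells. Keratins and the SLURP genes have close relatives, with which reads can be shared.

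No member of the family came near that likeness. The difference from ALDH3A1 was 0.91 for ALDH3B1 and 1.00 for ALDH1L2, and it was largest for ALDH1A1 at 1.82. These distances use all 6 libraries, including those that chose ALDH3A1, and are a description.

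**Figure D4:**
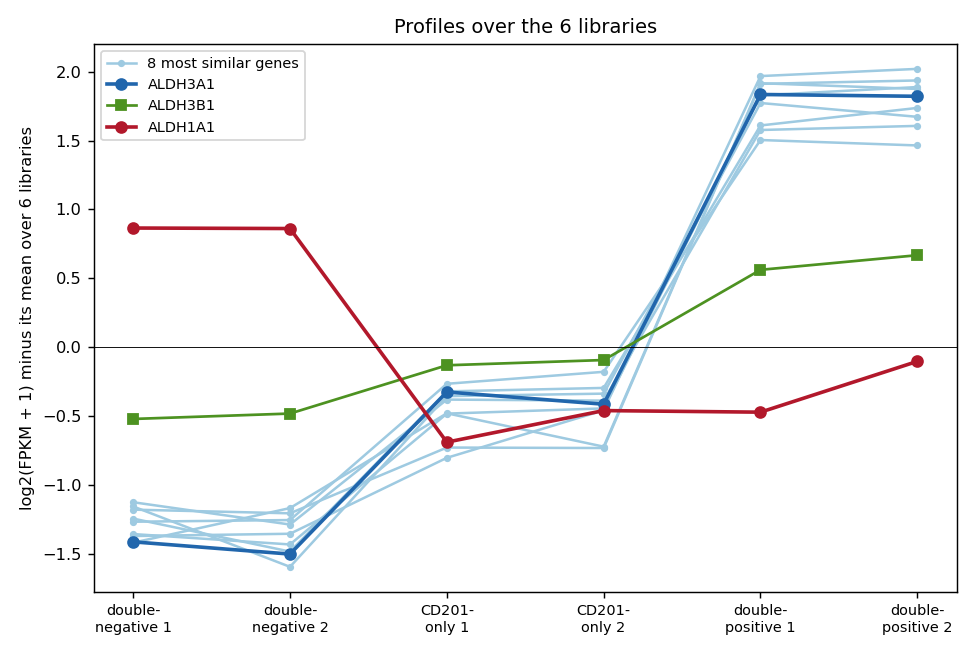
Log2(FPKM + 1) minus its mean over the 6 libraries for ALDH3A1, its 8 most similar genes, ALDH3B1 and ALDH1A1, with libraries on the horizontal axis. The 8 genes follow ALDH3A1 from double-negative to double-positive libraries, ALDH3B1 does so over a smaller range, and ALDH1A1 is highest in the double-negative libraries.

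Several of those similar genes are known from stratified epithelium, so markers of that tissue were read beside ALDH3A1. Of 10 keratinocyte and corneal markers, 4 reached 1 FPKM in at least 1 group, and the summed level was 10.96 to 11.8 FPKM in double-negative, 19.6 to 19.8 FPKM in CD201-only and 43.6 to 45.1 FPKM in double-positive libraries. KRT14 averaged 1.82, 2.72 and 29.7 FPKM in those groups, and KRT5 averaged 2.23, 9.79 and 5.93 FPKM. The defining factors TP63 and PAX6, and KRT1, were under 0.1 FPKM in every library. The part of such cells in the ALDH3A1 values was not tested.
Of 5 blood markers, CD3E was at 0 and the sum, mostly CD14, was 21.6 to 22.2, 9.76 to 11.0 and 33.3 to 34.5 FPKM. Of 5 endothelial markers, PECAM1 was under 0.1 FPKM and the sum was 4.25 to 4.61, 3.80 to 4.32 and 4.89 to 5.13 FPKM. Within that sum the 2 tested markers went opposite ways in double-negative against double-positive cells. KDR averaged 3.06, 0.959 and 0.593 FPKM in the 3 groups (log2 change 1.35). It met the minimum for testing only through its double-negative libraries, where it was high, so its call is not taken as support. TIE1 averaged 0.743, 2.47 and 3.35 FPKM (-1.33, adjusted p = 5.24e-05, limma). The part of such cells in the members' values was not tested. Of 4 melanocyte markers, MLANA, TYR and DCT were at 0 in every library.

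Genes of the pathways around these enzymes were read from lists drawn up for each pathway, by counts of genes called by limma over all genes tested. In double-negative against double-positive cells 42.1% of all genes were called higher and 24.5% lower, in CD201-only against double-positive cells 35.8% and 22.9%, and in double-negative against CD201-only cells 21.5% and 16.5%. After median-ratio rescaling of the libraries these shares were 29.9% and 31.9%, 26.4% and 28.5%, and 17.7% and 19.9%. NQO1 stands in 2 of the lists, and ALDH4A1 and ALDH6A1 stand in a list of amino acid breakdown as well as in the family. The aryl hydrocarbon receptor, a ligand-activated transcription factor that induces ALDH3A1 in rat liver and hepatoma cells, was represented by 7 tested genes of 10. Of these, 2 rose and 4 fell in double-negative against double-positive cells. AHRR, the receptor's repressor and itself a target, averaged 2.78 FPKM in double-negative, 1.51 FPKM in CD201-only and 12.6 FPKM in double-positive cells (-1.85, adjusted p = 1.58e-06, and -2.44, adjusted p = 7.10e-07, against double-positive cells). CYP1B1, a target that hydroxylates oestrogens and aromatic hydrocarbons, averaged 11.0, 10.3 and 19.7 FPKM (-0.79, adjusted p = 3.80e-05, and -0.88, adjusted p = 2.66e-05).

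CYP1A1, the classic target of that receptor, went the other way. It averaged 9.20 FPKM in double-negative, 4.604 FPKM in CD201-only and 5.15 FPKM in double-positive cells, a rise in double-negative cells of 0.73 against double-positive (adjusted p = 2.16e-04) and 0.86 against CD201-only cells (adjusted p = 2.63e-04). Of the 7 genes, 5 fell and 1 rose in CD201-only against double-positive cells (5 and 0 after median-ratio rescaling), with AHR itself at 3.19 and 6.03 FPKM (-0.75, adjusted p = 1.02e-04). Against the mean of the other groups 6 of 7 were lower in CD201-only cells and 0 higher, in a comparison where 20.7% of all genes were called lower and 24.1% higher, and in double-negative against CD201-only cells 5 of 7 rose and 0 fell.

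Targets of NRF2, the regulator of antioxidant genes, had 22 of 22 genes tested and moved both ways. Between double-negative and double-positive cells 8 rose and 7 fell, and after median-ratio rescaling 7 rose and 9 fell. PRDX1, a peroxidase, averaged 735.9 FPKM in double-negative and 399.8 FPKM in double-positive cells (0.89, adjusted p = 1.09e-04), PIR, an iron-binding protein, averaged 51.4 and 29.9 FPKM (0.76, adjusted p = 1.20e-05), and the cystine transporter SLC7A11 averaged 29.6 and 18.4 FPKM (0.66, adjusted p = 5.00e-05). CD201-only against double-positive cells had 6 rises and 11 falls, or 5 and 11 after rescaling. HMOX1, haem oxygenase, averaged 16.2 FPKM in CD201-only and 31.4 FPKM in double-positive cells (-0.91, adjusted p = 2.40e-05), and NQO1, a quinone reductase also counted as a target of the aryl hydrocarbon receptor, averaged 110.9 and 163.1 FPKM (-0.55, adjusted p = 1.61e-05). TKT, transketolase, rose instead (0.55, adjusted p = 2.04e-06).

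Aldehyde reductases and alcohol dehydrogenases, many of which have aldehydes as substrates or products, had 12 of 19 genes tested. In double-negative against double-positive cells 7 rose and 5 fell, or 5 and 5 after rescaling, and in CD201-only against double-positive cells 5 rose and 4 fell, or 4 and 5 after median-ratio rescaling. AKR1B1, aldose reductase, averaged 92.8 FPKM in double-negative, 94.6 FPKM in CD201-only and 167.8 FPKM in double-positive cells (-0.85, adjusted p = 7.65e-07, and -0.82, adjusted p = 1.14e-06). CBR3, a carbonyl reductase, fell likewise (-0.86, adjusted p = 1.66e-05, and -0.90, adjusted p = 1.63e-05). AKR1B10 averaged 0.685 FPKM in double-negative, 0.228 FPKM in CD201-only and 2.32 FPKM in double-positive cells (-0.98 and -1.43 against double-positive cells). It met the minimum for testing only through its double-positive libraries, where it was high, so its calls are not taken as support. AKR1C3, which reduces steroids and prostaglandins, averaged 39.7, 30.6 and 19.7 FPKM (0.99 in double-negative against double-positive cells, adjusted p = 2.02e-04). AKR1C1, a close relative whose reads may be shared with AKR1C2, averaged 790.0 FPKM in CD201-only and 493.9 FPKM in double-positive cells (0.68, adjusted p = 1.18e-06).

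**Figure D5:**
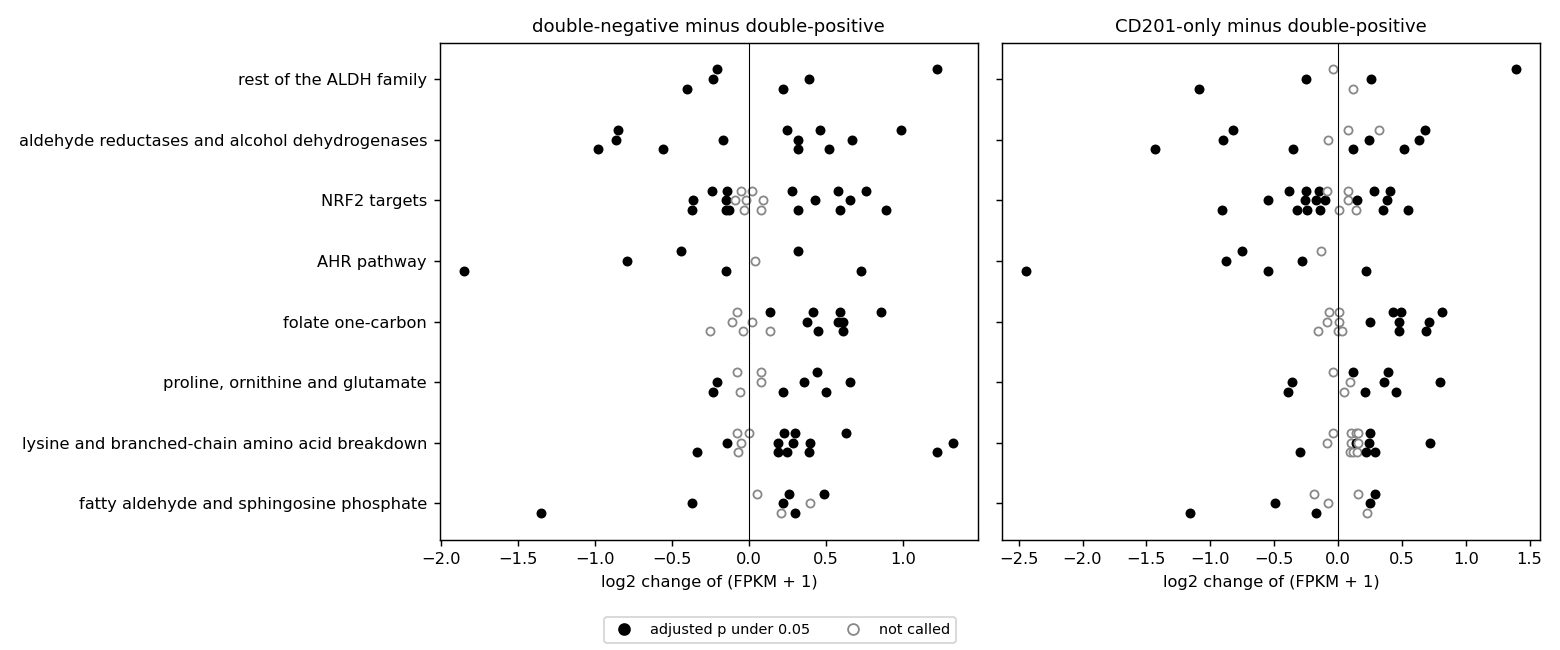
Log2 change of (FPKM + 1) of each tested gene, 1 row per gene list, in double-negative and in CD201-only against double-positive cells; filled points passed an adjusted p under 0.05, and the vertical offset within a row has no meaning. The folate row lies mostly right of 0, and AHRR is the leftmost point of the aryl hydrocarbon receptor row at -1.85 and -2.44.

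Folate one-carbon genes, the partners of ALDH1L2, had 15 of 17 genes tested. Double-negative against double-positive cells had 9 rises and 0 falls, and after median-ratio rescaling 8 rose and 4 fell, which moved the median of all genes from 0.11 to 0.00. In CD201-only against double-positive cells 8 rose and 0 fell, and 8 and 1 after rescaling. SHMT1, which loads the one-carbon unit from serine, averaged 19.2 FPKM in double-negative, 18.4 FPKM in CD201-only and 10.1 FPKM in double-positive cells (0.86, adjusted p = 1.41e-05, and 0.81, adjusted p = 2.31e-05). TYMS, thymidylate synthase, averaged 179.8, 192.4 and 117.6 FPKM (0.61, adjusted p = 1.12e-05, and 0.71, adjusted p = 6.81e-06). ALDH1L2, which removes formyl groups from folate, was highest in double-positive cells, where both of these genes were lowest. Other genes of the list did not share this: 6 of the 15 were not called in double-negative against double-positive cells. Among them, SHMT2 averaged 98.0, 97.4 and 96.7 FPKM in the 3 groups. A link between ALDH1L2 and these genes was not tested.

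Lysine and branched-chain amino acid breakdown, the setting of ALDH7A1, had 17 of 17 genes tested. In double-negative against double-positive cells 11 rose and 2 fell, and after rescaling 7 and 4. AASS, which starts lysine breakdown, had 11.99 and 11.98 FPKM in double-negative, 7.26 and 7.83 FPKM in CD201-only, and 4.44 and 3.93 FPKM in double-positive libraries, with no overlap between groups. Against double-positive cells it rose by 1.33 in double-negative (adjusted p = 4.71e-06) and by 0.72 in CD201-only cells (adjusted p = 1.12e-04). AADAT, the aminoadipate aminotransferase that follows ALDH7A1, averaged 17.4, 7.88 and 6.92 FPKM in the 3 groups and was higher in double-negative cells than in double-positive (1.22, adjusted p = 2.44e-05) and CD201-only cells (1.06, adjusted p = 1.38e-04). ALDH7A1 lies between these enzymes in the route, and its own double-negative and CD201-only libraries overlapped.

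Proline, ornithine and glutamate genes, around ALDH18A1, had 11 of 12 listed genes tested. Of these, 5 rose and 2 fell in double-negative against double-positive cells, or 4 and 3 after rescaling, and in CD201-only against double-positive cells 6 rose and 2 fell, or 4 and 2 after rescaling. PRODH, proline oxidase, averaged 58.2 FPKM in double-negative, 87.3 FPKM in CD201-only and 49.8 FPKM in double-positive cells, and rose in CD201-only against double-positive cells (0.80, adjusted p = 2.97e-06). PYCR1, which turns the product of ALDH18A1 into proline, averaged 53.2 FPKM in CD201-only and 70.3 FPKM in double-positive cells (-0.39, adjusted p = 1.17e-04). ODC1, ornithine decarboxylase, averaged 40.8 FPKM in double-negative and 28.6 FPKM in double-positive cells (0.50, adjusted p = 7.94e-05).

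Genes of fatty aldehyde and sphingosine phosphate metabolism, which feed ALDH3A2, had 9 of 11 genes tested. Double-negative against double-positive cells had 4 rises and 2 falls, and after rescaling 2 and 2. SPHK1, sphingosine kinase, averaged 41.4 FPKM in double-negative, 47.5 FPKM in CD201-only and 107.2 FPKM in double-positive cells (-1.35, adjusted p = 1.83e-07, and -1.16, adjusted p = 5.00e-07). SGPL1, the lyase that yields the fatty aldehyde for ALDH3A2, averaged 10.8 FPKM in CD201-only and 8.87 FPKM in double-positive cells (0.25, adjusted p = 0.0294), and this call was lost in 8 of 16 alternatives, with adjusted p up to 0.163.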

How the data were processed

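Stranded poly-A libraries were prepared with a TruSeq kit and sequenced on a HiSeq instrument, per the labels' protocols. Expression was deposited as FPKM in 1 table of 6 library columns. The submitters' processing notes name STAR, Cuffnorm and the builds hg19 and GRCh37. Versions, options, annotation and the library scaling of the FPKM were not given in the sources used here. A rescaling of libraries by Cuffnorm would move all genes of a library together. All 6 columns matched a label, and 0 were left over.

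Values were taken as log2(FPKM + 1), which understates changes of low genes. The 12210 genes that averaged 1 FPKM or more were fitted in limma 3.58.1 (R 4.3.3) with 1 coefficient per group and a variance trend. Residual degrees of freedom were 3 and prior degrees of freedom 3.95, and the script was tested on simulated data. P-values were adjusted by Benjamini-Hochberg over all tested genes and called under 0.05. A planned test of ALDH3A1 in CD201-only cells against the mean of the other groups was withdrawn, because that mean holds the libraries that chose the gene. Log2 changes are the first-named group minus the second. The members, lists and tests were chosen with earlier results of these data known.

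Named genes are the members, the remaining ALDH genes and the 8 genes most like ALDH3A1. Each list and comparison adds up to 3 called genes with the largest change that reached 5 FPKM. From the rule's list the text gives a selection. KRT5, KRT14, THY1, CD14, LYZ, PTPRC, KDR, TIE1 and the sorted proteins are named as markers. AKR1B10 and SHMT2 are named outside the rule, to show limits of their lists. Depth was approximated from the steps between low FPKM values of 87 genes, whose quartiles for the deepest library were 9.94 and 20.9 M fragments. Replicate differences were 1.07 to 1.58 times counting variance. Python 3.11.15, pandas 2.3.3, numpy 2.4.6 and matplotlib 3.10.9 were used. Alternatives were another pseudocount (0.1), other minima, 2 rescalings, other variance models, fewer libraries, the replicate number as a block and leaving out each library.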

Additional observations from a re-analysis of the deposited data

How the results depend on the processing

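Members called in CD201-only cells against the mean of the other groups numbered 6 of 9, with ALDH3A1 left untested, and 3 to 6 when 1 library was left out, where the lone library of a group was assumed to vary like the others. Genes called over the lists in double-negative against CD201-only cells numbered 43, 25 with the double-negative libraries averaged (added after seeing the data), and 25 to 46 when 1 library was left out, with 25 without double-negative replicate 1 and 28 without double-negative replicate 2. No other count over the members or over all lists together moved by over 1.5 times. Of 64 counts by single list, direction and comparison, 11 moved by over 1.5 times under median-ratio rescaling and 3 under quantile normalization. In double-negative against double-positive cells, rescaling gave 8 rises and 4 falls for folate genes in place of 9 and 0, 7 and 4 for lysine and branched-chain genes in place of 11 and 2, and 2 and 2 for fatty aldehyde genes in place of 4 and 2. Values that changed sign were near 0. Leaving out 1 library gave ALDH18A1 -0.09 to 0.00 in double-negative against double-positive cells. It gave ALDH3A2 -0.09 to 0.02 and ALDH7A1 -0.01 to 0.05 in double-negative against CD201-only cells, and ALDH4A1 -0.08 to 0.01 and ALDH9A1 -0.15 to 0.09 in CD201-only against double-positive cells. Median-ratio rescaling gave ALDH3A2 -0.04 in double-negative against double-positive cells, and ALDH5A1 -0.00 and ALDH7A1 -0.02 in double-negative against CD201-only cells, where quantile normalization gave ALDH5A1 -0.04. The cause was not tested. Same-numbered replicates showed little joint deviation (correlations from -0.0727 to 0.117). Replicate differences were only 1.07 to 1.58 times counting variance, so these correlations cannot tell whether the numbers pair libraries. With the replicate number as a block, 7 members were called in CD201-only cells against the mean and 6 against double-positive cells. Of the values of single genes, 2117 kept direction and side of the threshold, 101 lost a call and 12 gained one. A further 10 changed sign, which are the values near 0 given above, and 23 values without a test moved in size and kept their direction. The comparison with the mean was not run on fewer groups, and ALDH1L2 has no value at a minimum of 5 FPKM. With 2 libraries per group, small changes of genes near 1 FPKM are limited by depth.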
